A study of Rattus norvegicus with 24 samples.

Results

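RNA levels of 9 serotonin receptors were examined in the nucleus accumbens (NAc) of male Sprague Dawley rats. The receptors were taken by gene name, with earlier results of these data known: Htr1a, Htr1b, Htr1d, Htr1f, Htr2a, Htr2c, Htr4, Htr6 and Htr7, of the 32545 genes listed. Poly(A) RNA was sequenced in 24 libraries, 4 biological replicates in each of 6 groups, with tissue taken from adult rats that were 8 weeks old on arrival. In the injection experiment, rats first received 5 intraperitoneal injections of saline or of lipopolysaccharide (LPS, which comes from the outer coat of bacteria and provokes inflammation) at 250 µg/kg, spread over weeks. They then received saline or heroin, an opioid, on 5 days at doses rising from 1 to 5 mg/kg, and were killed after the last injection. Death is listed at 1 hour after it. The methods of the study instead place death within 1 hour after the end of a locomotor test that followed the last injection. Named by first and second agent, these rats form the Saline-Saline and LPS-Saline groups without heroin and the Saline-Heroin and LPS-Heroin groups with it. In the self-administration (SA) experiment, rats with a jugular catheter took heroin at 0.075 mg/kg per infusion (Heroin-SA) or saline (Saline-SA) in 10 daily sessions of 6 hours and were killed directly after the last session. No group of that experiment received LPS. The interval between LPS and heroin is a week in the sample labels and shorter in the methods of the study. The methods also give more sequenced rats per group than the 4 libraries analysed here.

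Serotonin reaches the NAc in fibres from the raphe nuclei of the brainstem, and the cells of the NAc read it through receptors of several classes. The Htr1 receptors couple to Gi/o proteins and lower cyclic AMP; Htr1b and Htr1d also sit on axon endings, where they hold back transmitter release. Htr2a and Htr2c couple to Gq proteins and raise intracellular calcium, whereas Htr4, Htr6 and Htr7 couple to Gs proteins and raise cyclic AMP. Most cells of the NAc are GABA-releasing medium spiny neurons, which carry several of these receptors. The RNA of a receptor made by cells elsewhere that only send axons to the NAc is largely left behind in their cell bodies.

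Each library held between 12312878 and 18850240 reads on genes. The values are FPKM, fragments scaled to the length of the gene and the depth of the library, so levels of different genes can be set side by side. Markers of medium spiny neurons were high in all groups, with a summed level of 12 genes between 1320 and 3507 FPKM. Markers chosen for neighbouring tissue also differed in level between libraries. Whether cells of the NAc itself made part of this RNA was not tested. The summed level of 11 cortical and claustral neuron markers ran from 66.4 to 517.5 FPKM, and that of 10 septal and ventral forebrain markers from 28.2 to 145.0 FPKM. Saline-Saline replicate 1 stood apart with 318.4 FPKM of the choroid plexus gene Ttr, against 5.35 FPKM or less in the rest of its group, and receptor calls that rest on its group are given with and without it. Values of other genes of the pathway are given with it. In this bulk tissue, fewer cells of a type and less RNA per cell cannot be told apart.

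Htr2c was the main serotonin receptor RNA of the NAc, at a mean of 66.6 FPKM (range 50.7 to 82.6 over 24 libraries), and it was the highest member in 24 of 24 libraries. It made up between 53.1% and 68.4% of the summed FPKM of the 9 genes in a library and lay above 95.9% of all listed genes. Htr1b and Htr2a followed at 11.5 and 11.4 FPKM, 5.80 times below Htr2c in the case of Htr1b. Their order was not fixed, since Htr1b was above Htr2a in 8 of 24 libraries. Next came Htr6 at 7.08 FPKM, Htr1d at 4.27 FPKM and Htr1a at 3.48 FPKM. Htr1f and Htr4 were the lowest of the measurable members, at 1.97 and 1.85 FPKM, with medians of 38.5 and 37 reads per library. Their values therefore carry a larger counting error than those of Htr2c, which had a median of 4362 reads.

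Htr7 (chr1:254549214-254671610, minus strand, rn6), whose span overlaps 1 gene on the opposite strand, was close to undetected. It had 14 reads in all libraries together, at most 2 in any library, and reads in 11 of 24 libraries. A count of 3 reads would correspond to 0.0989 to 0.152 FPKM, depending on the library, and no library reached it. Whether counting used the strand is not given, and the effect of the overlap on the Htr7 count was not tested. Htr7 lies below the minimum mean of 0.5 FPKM that was set for testing, so 8 of 9 members were tested. Intervals and limits from reads cover counting error only.

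The summed FPKM of the 9 genes was 102.1 ± 6.80 (SD, n = 4) in Saline-Saline and between 105.4 and 113.3 in the means of the other groups, with ranges that overlapped between all groups. The plot of FPKM by library shows the 8 measurable receptors in the 6 groups. Group means of Htr2c differed least, by 1.19-fold between the highest and the lowest group, and those of Htr1a most, by 2.53-fold. When the groups were ordered by mean for each receptor, 6 of 40 steps between neighbouring groups were larger than the larger SD of the pair, and groups on either side of a step did not overlap in 1 of 40. That step was between LPS-Heroin and LPS-Saline for Htr1f, where 2.58% of all genes tested did not overlap.

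**Figure D1:**
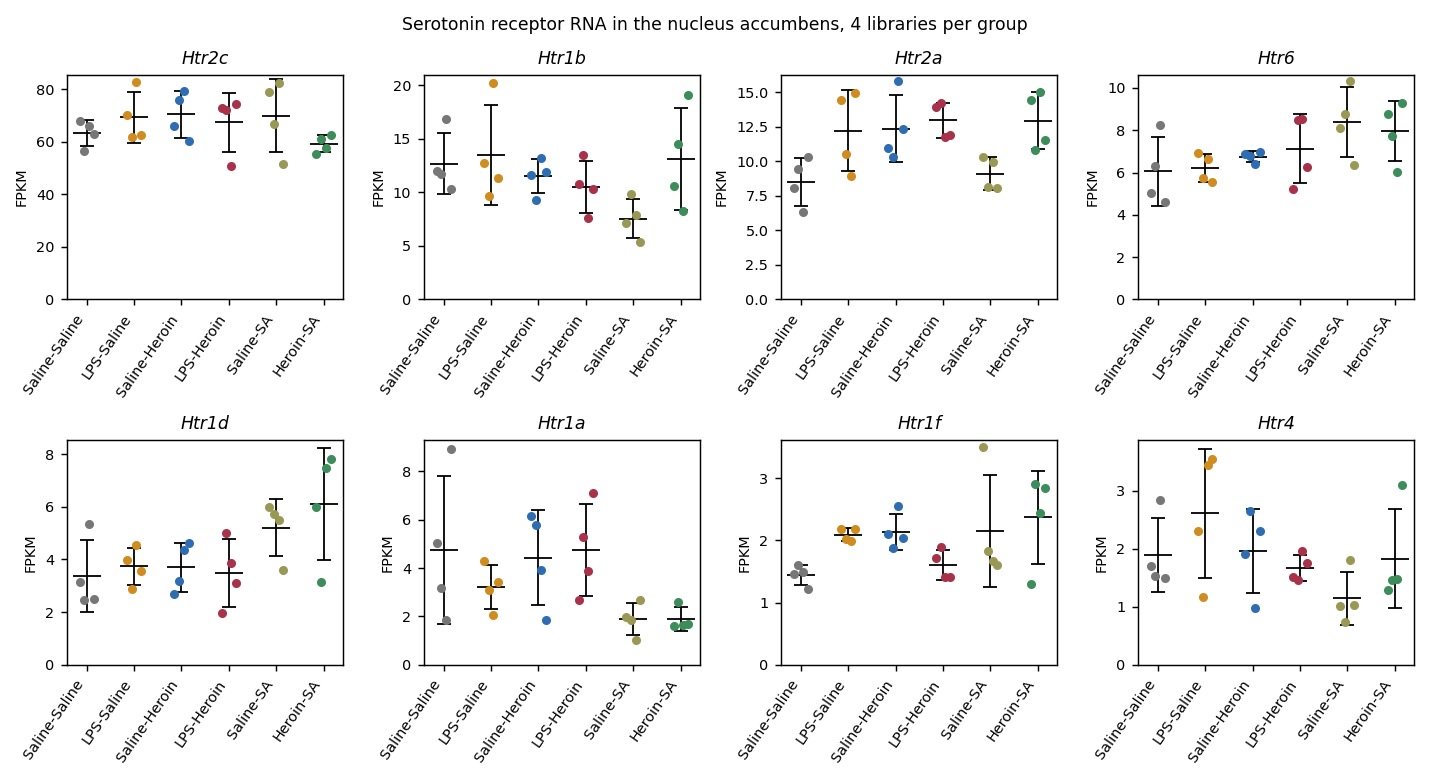
FPKM (vertical axis, linear, from 0) of the 8 measurable serotonin receptors in 6 groups (horizontal axis). Points are the 4 libraries of a group, and bars show the mean and SD. Htr2c lies between 50.7 and 82.6 FPKM in every group, Htr2a is lowest in Saline-Saline and Saline-SA, and Htr1f is higher in LPS-Saline and Saline-Heroin than in Saline-Saline without overlap. Of all genes tested, 4.11% and 3.39% had no overlap in these comparisons. Saline-SA also lies above Saline-Saline for Htr1f without overlap, as for 28.3% of all genes tested.

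Htr2a and Htr2c are the Gq-coupled members. Htr2a, the target of classical psychedelics, lies at chr15:56666012-56735382 on the plus strand (rn6) and overlaps no other listed gene. In Saline-Saline it stood at 8.04, 9.45, 6.31 and 10.3 FPKM, and in Saline-SA at 10.4, 8.11, 9.94 and 8.07 FPKM. Both control groups were thus at a like level, with means of 8.53 ± 1.76 and 9.12 ± 1.20 FPKM (SD, n = 4).

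Every treated group had a higher mean of Htr2a than its own control. LPS-Saline had 14.4, 10.5, 8.96 and 14.96 FPKM, a group in which 1 value lay within the range of Saline-Saline. Saline-Heroin had 10.99, 10.4, 15.8 and 12.4 FPKM, all above the highest Saline-Saline library, though its lowest value was close to it. LPS-Heroin had 14.0, 14.2, 11.8 and 11.9 FPKM, the tightest of the groups that had received either agent by injection. Heroin-SA had 14.5, 10.8, 15.1 and 11.5 FPKM, all above the highest Saline-SA library. Of all genes tested, 3.39% in Saline-Heroin, 6.86% in LPS-Heroin and 6.80% in Heroin-SA had no overlap with the control, in either direction. By mean, the order was Saline-Saline, Saline-SA, LPS-Saline, Saline-Heroin, Heroin-SA and LPS-Heroin, and the 4 treated groups lay between 12.2 and 13.0 FPKM, closer together than their SDs of 1.29 to 2.94.

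Differences were tested with limma on log2(FPKM + 0.1), and a gene was called where the unadjusted p was at most 0.05 and the fold change at least 1.3. Fold changes on this scale understate the change of low genes. In LPS-Heroin against Saline-Saline, Htr2a rose by a log2 fold change of 0.62 (SE 0.15, 95% interval 0.28 to 0.96, limma p = 0.00271, exact permutation p = 0.0286), a 1.54-fold rise. It was the 1 member of 8 called there, where 5.42% of all genes tested were called. Its adjusted p over all genes was 0.205, and no gene in that comparison had an adjusted p under 0.05. In Saline-Heroin against Saline-Saline, Htr2a rose by 0.54 (SE 0.18, limma p = 0.0147, exact permutation p = 0.0286), 1 of 2 members called against 3.07% of all genes. In LPS-Saline against Saline-Saline it rose by 0.51 (SE 0.20, limma p = 0.0338, exact permutation p = 0.114), again 1 of 2 members called, against 2.36% of all genes. The adjusted p of Htr2a was 0.75 and 0.736 in these. The smallest exact permutation p that 4 against 4 libraries allow is 0.0286. These 3 comparisons share the same 4 Saline-Saline rats, so a low value in that group enters all of them.

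The LPS-Saline call of Htr2a rested on single libraries. It was lost without Saline-Saline replicate 1 (log2 fold change 0.49), Saline-Saline replicate 3 (0.37), LPS-Saline replicate 1 or LPS-Saline replicate 4, whereas the Saline-Heroin and LPS-Heroin calls were kept when any library was left out. Without Saline-Saline replicate 1, the library with choroid plexus RNA, Htr2a rose by 0.52 in Saline-Heroin and by 0.60 in LPS-Heroin.

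Self-administration gave a comparison with controls of its own. In Heroin-SA against Saline-SA, Htr2a rose by 0.50 (SE 0.14, 95% interval 0.18 to 0.81, limma p = 0.00589), 1.41-fold, with groups that did not overlap (exact permutation p = 0.0286). It was 1 of 2 members called, against 5.44% of all genes, and its adjusted p was 0.339. Groups did not overlap for 6.80% of all genes tested there. The difference between the heroin effect of SA and that of injection in rats without LPS was -0.04 (95% interval -0.54 to 0.47), an interval that still allows a difference of over 1.3-fold either way. The rise was kept in every fit that left out a library, at 0.42 to 0.58.

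Taken over both factors of the injection experiment, Htr2a was higher with LPS by 0.29 (SE 0.13, limma p = 0.0389, exact permutation p = 0.0706) and higher with heroin by 0.33 (SE 0.13, limma p = 0.024, exact permutation p = 0.042). Neither main effect reached 1.3-fold, so 0 of 8 members were called for the LPS main effect (1.75% of all genes) and 0 of 8 for the heroin main effect (2.45% of all genes). At an unadjusted p under 0.05 alone, limma gave 1 member for each main effect, Htr2a. Of all 15113 genes tested, limma gave 1008 for LPS and 1226 for heroin at that threshold, where chance alone would give 755.65. The interaction of Htr2a was -0.42 (95% interval -0.98 to 0.13). When given after LPS, heroin added 0.11 (95% interval -0.26 to 0.49) to Htr2a in LPS-Heroin against LPS-Saline, where 0 of 8 members and 2.29% of all genes were called.

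Markers chosen for neighbouring tissue moved in some of the same comparisons. In LPS-Heroin against Saline-Saline, 7 of 12 cortical and claustral markers rose, among them the vesicular glutamate transporter Slc17a7 and the cortical transcription factor Tbr1, and 6 of 10 septal and ventral forebrain markers fell. The summed cortical level was 424.5 to 513.1 FPKM in LPS-Heroin and 123.3 to 340.6 FPKM in Saline-Saline. In Heroin-SA against Saline-SA, 0 of 11 cortical markers tested were called, with a median log2 fold change of 0.33. Their summed levels overlapped widely, at 66.4 to 460.3 against 76.0 to 292.4 FPKM. Of the 10 septal and ventral forebrain markers, 1 fell there, with a median of -0.53 over the list. In the other comparisons with Saline-Saline, 0 of 11 cortical markers were called, with median log2 fold changes of 0.29 for LPS and 0.57 for heroin. For the heroin main effect, 3 of 11 cortical markers rose (Slc17a7, Tbr1 and Emx1) and 4 of 10 septal markers fell, and for the LPS main effect 0 of either list were called. Across the 24 libraries, with group means removed, Htr2a and the cortical list had r = 0.42 and rho = 0.30 (permutation p = 0.083 and 0.232, adjusted p = 0.31 and 0.556), with r = 0.64 in the injection libraries, r = 0.10 in the SA libraries and r = 0.28 without the 2 libraries farthest from the median of the list. The part of the cortical RNA in the Htr2a values was not tested.

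Htr2c, which lies at chrX:118084890-118318039 on the plus strand (rn6), was not called in any comparison. Its span holds 7 small RNAs on the same strand, with at most 4 reads each in a library. Its log2 fold changes in the 3 comparisons with Saline-Saline were 0.12, 0.15 and 0.08. Their 95% intervals ended at 0.37 or below, narrowly short of 0.379, the log2 of a 1.3-fold rise. When single libraries were left out, the log2 fold changes reached up to 0.17, 0.22 and 0.21, so this margin is not firm. In Heroin-SA, Htr2c stood at 55.4, 61.0, 57.7 and 62.7 FPKM, within the 51.6 to 82.5 FPKM of Saline-SA, a difference of -0.22 (95% interval -0.53 to 0.09). The difference between its heroin effects by SA and by injection was -0.37 (95% interval -0.75 to 0.02) and was not called. That value passed both thresholds after scaling the libraries to equal medians, at -0.39, and without Saline-Heroin replicate 4 or Saline-SA replicate 4.

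**Figure D2:**
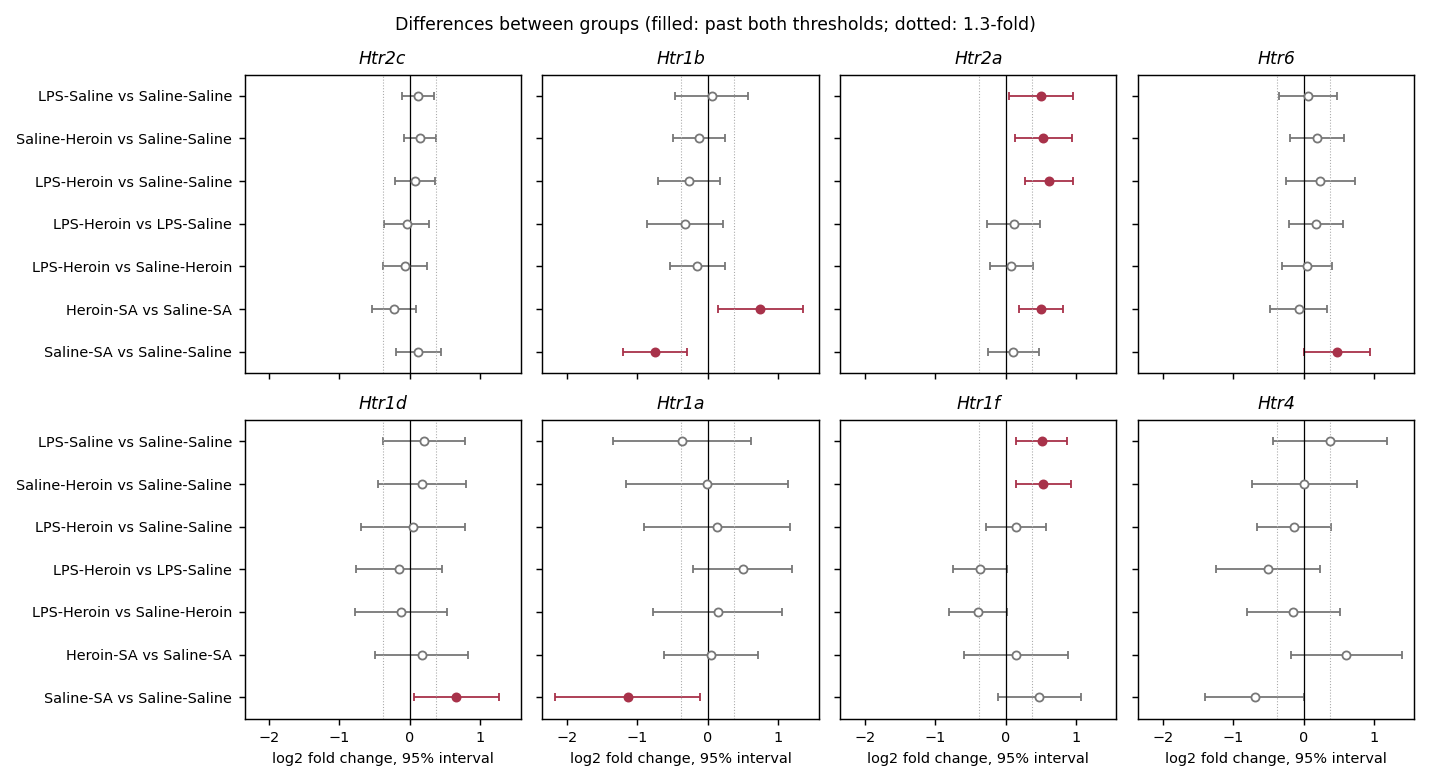
Log2 fold changes (horizontal axis) with 95% intervals from limma for 8 serotonin receptors in 7 comparisons between groups (rows), first group named over the second. Filled points passed p of at most 0.05 and 1.3-fold (dotted lines). Htr2a is filled in 4 rows at 0.50 to 0.62, and Htr2c in none.

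Htr1f, a Gi/o-coupled receptor and the target of the lasmiditan class of migraine drugs, was the only member called for the interaction of LPS and heroin. That call did not hold after adjustment over all genes. The gene lies at chr11:1982113-1983513 on the minus strand (rn6), and its annotated length equals its span, as for the intronless genes Htr1a, Htr1b and Htr1d. In Saline-Saline it stood at 1.46, 1.60, 1.49 and 1.22 FPKM. LPS-Saline had 2.18, 2.02, 1.99 and 2.18 FPKM and Saline-Heroin had 2.10, 1.87, 2.55 and 2.04 FPKM. Each agent alone thus left all 4 libraries above the highest control library. Of all genes tested, 4.11% in LPS-Saline and 3.39% in Saline-Heroin had no overlap with Saline-Saline, in either direction. LPS-Heroin had 1.72, 1.90, 1.42 and 1.41 FPKM, with 2 libraries within the range of Saline-Saline and all 4 below the lowest of LPS-Saline.

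The bases ahead of the start of Htr1f and of Htr1b are shown because these members were called for a difference in the heroin effect. Htr1f was called for the interaction and Htr1b for SA against injected heroin. Neither call held after adjustment over all genes. They come from RefSeq on the build GRCr8, which is not the build of the values. Of the 9 members, 6 had an entry in the promoter table; Htr1a, Htr2a and Htr4 had none. Each stretch holds the 250 bases before the annotated start, read 5′ to 3′ on the strand of the gene. Htr1f, chr11:16090666-16090915, minus strand, and Htr1b, chr8:91414816-91415065, minus strand, read as follows, with capitals for matches to a searched motif.
Htr1f: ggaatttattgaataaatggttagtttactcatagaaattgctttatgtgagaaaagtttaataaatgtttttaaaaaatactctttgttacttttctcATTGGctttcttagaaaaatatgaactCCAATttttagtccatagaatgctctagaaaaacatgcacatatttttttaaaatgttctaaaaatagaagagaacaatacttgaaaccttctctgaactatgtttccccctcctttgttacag
Htr1b: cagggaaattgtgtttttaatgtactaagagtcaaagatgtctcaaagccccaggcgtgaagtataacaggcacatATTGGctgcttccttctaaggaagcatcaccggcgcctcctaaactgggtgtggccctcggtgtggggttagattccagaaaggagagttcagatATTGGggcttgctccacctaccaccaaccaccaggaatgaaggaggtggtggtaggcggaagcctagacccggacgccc
The 7 motifs searched on both strands were the TATA box (TATAAA), the CCAAT box (CCAAT), the cyclic AMP response element (TGACGTCA) and its shorter form (TGACG, which the longer form contains), the AP-1 site (TGANTCA), the NF-kB site and the GC box (GGGCGG). All capitals are CCAAT boxes, of which each stretch held 2, against 34.0% of 33469 promoters of this length that held any. The other 6 motifs were not in these windows; they were in 12.9% (TATA box), 1.59% and 18.2% (cyclic AMP response element and its shorter form), 6.34% (AP-1), 4.53% (NF-kB) and 30.5% (GC box) of promoters. The Htr1f stretch was poor in G and C, at 27.2%, against 52.4% for Htr1b and a median of 51.2% over all promoters. Whether transcription in the NAc begins at these annotated starts was not tested, so a stretch may not be the promoter in use.

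In limma, Htr1f rose by 0.51 (SE 0.16, p = 0.0113) in LPS-Saline and by 0.54 (SE 0.17, p = 0.0125) in Saline-Heroin over Saline-Saline, 1.43-fold and 1.45-fold, with an exact permutation p = 0.0286 and adjusted p-values of 0.679 and 0.75. It was the other of the 2 members called in each. Without Saline-Saline replicate 1 the values were 0.52 and 0.55, both still called. With a pseudocount of 1 they were 0.34 and 0.36, under 1.3-fold, and both calls were lost. In LPS-Heroin over Saline-Saline its log2 fold change was 0.15 (95% interval -0.28 to 0.57). The interaction, the effect of both agents less the effects of each, was -0.90 (SE 0.21, 95% interval -1.36 to -0.45). Htr1f was the 1 of 8 members called for it, against 2.31% of all genes. Its p was the 8th smallest of 15113 genes, but the adjusted p was 0.992, and limma gave 0 genes with an adjusted p under 0.05, against 607 at an unadjusted p under 0.05, fewer than the 755.65 that chance alone would give. The interaction kept its sign and both thresholds in all 16 fits that left out a library, and was -0.91 without Saline-Saline replicate 1. It uses the same 16 libraries as the pairwise comparisons and is no separate evidence for them. A low value in Saline-Saline enters the interaction and both rises.

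The steps down in LPS-Heroin were smaller. Against LPS-Saline, Htr1f differed by -0.37 (SE 0.17, limma p = 0.0584, exact permutation p = 0.0286), with groups that did not overlap, as for 2.58% of all genes tested. Against Saline-Heroin it differed by -0.39 (SE 0.18, limma p = 0.0573, exact permutation p = 0.0571), where 0 of 8 members and 2.20% of all genes were called. Neither passed the threshold on p, and both did so without LPS-Heroin replicate 2. With 25 to 54 reads for Htr1f in each of these 16 libraries, a difference of a few reads moves a value by several percent. In SA rats the spread was larger, at 3.505, 1.84, 1.67 and 1.61 FPKM in Saline-SA and 1.29, 2.91, 2.44 and 2.85 FPKM in Heroin-SA, and no difference was detected (0.14, 95% interval -0.59 to 0.88).

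**Figure D3:**
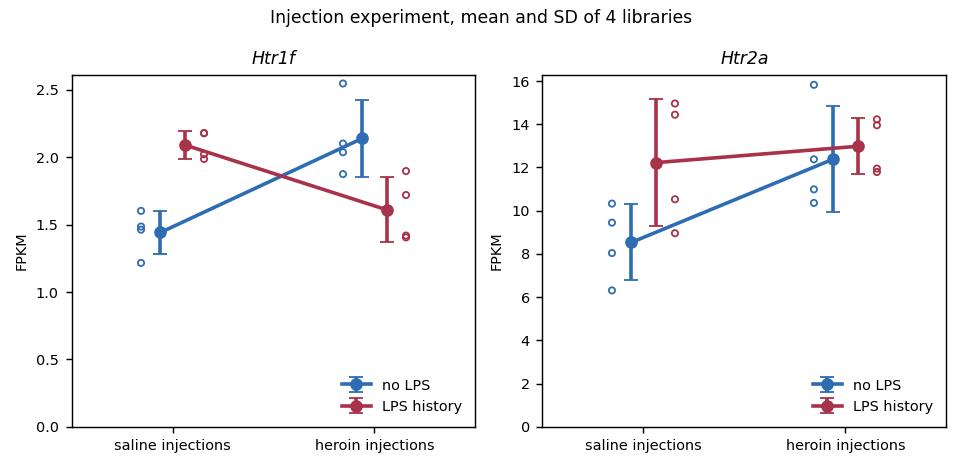
FPKM (vertical axis, from 0) of Htr1f and Htr2a in the 4 injection groups, by heroin (horizontal axis) and LPS history (colour). Filled points are means with SD of 4 libraries, and open points are the libraries. The Htr1f lines cross, with LPS-Heroin at 1.61 FPKM below LPS-Saline at 2.09, whereas Htr2a in LPS-Heroin stays with the groups that received 1 agent.

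Septal and ventral forebrain markers ran against Htr1f. Across the 24 libraries with group means removed, Htr1f and the mean of this list had r = -0.53 and rho = -0.67 (permutation p = 0.00035 and 0.00012, adjusted p = 0.0168 and 0.0115 over 96 pairs), r = -0.74 in the injection libraries, r = -0.73 in the SA libraries and r = -0.60 without the 2 libraries farthest from the median of the list. Over Saline-Saline, 1 of its 10 genes fell after LPS, 2 after heroin and 6 after both, and 0 were called for the interaction. The summed level was 54.8 to 145.0 FPKM in Saline-Saline. It was 32.8 to 82.8 FPKM after LPS, 38.4 to 106.0 FPKM after heroin and 28.2 to 61.5 FPKM after both. The range of the list reached lowest in LPS-Heroin. A list of 5 cholinergic neuron markers also ran against Htr1f, with r = -0.48 and rho = -0.60 (permutation p = 0.0158 and 0.00323, adjusted p = 0.168 and 0.0517), r = -0.79 in the injection libraries, r = -0.47 in the SA libraries and r = -0.47 without the 2 farthest libraries. Its marker Ache, the acetylcholinesterase gene, fell by 0.50 after LPS, by 0.56 after heroin and by 0.70 after both, each over Saline-Saline, and 0 of the 5 were called for the interaction. The part of these cells and this tissue in the Htr1f values was not tested.

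Htr1b, a presynaptic autoreceptor and heteroreceptor, was the other member called in Heroin-SA against Saline-SA, where 5.44% of all genes were called. It lies at chr8:89129453-89130991 on the minus strand (rn6). Saline-SA had 7.13, 9.81, 7.86 and 5.35 FPKM and Heroin-SA had 10.6, 14.5, 8.22 and 19.1 FPKM, so that 1 Heroin-SA library lay within the range of Saline-SA. Htr1b rose by 0.75 (SE 0.27, 95% interval 0.14 to 1.36, limma p = 0.0206, exact permutation p = 0.0571), 1.68-fold, with an adjusted p of 0.368. The call was lost without Saline-SA replicate 4, Heroin-SA replicate 2 or Heroin-SA replicate 4, at log2 fold changes down to 0.55.

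Injected heroin gave no such rise. Saline-Saline had 11.9, 11.7, 16.8 and 10.3 FPKM and Saline-Heroin had 11.6, 9.31, 13.2 and 11.9 FPKM, a difference of -0.12 (95% interval -0.49 to 0.24). The difference between the heroin effects by SA and by injection was 0.87 (SE 0.34, 95% interval 0.16 to 1.59, limma adjusted p = 0.721), the 1 of 8 members called for it, against 4.38% of all genes. It was kept in all 16 fits that left out a library, at 0.67 to 1.07, and limma gave 0 genes with an adjusted p under 0.05 against 993 at an unadjusted p under 0.05. Route, surgery, dosing and time of death differed between the experiments along with the control, and cannot be told apart.

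The control of the SA experiment was itself low in Htr1b. Saline-SA, at 7.54 ± 1.85 FPKM (SD, n = 4), lay below all libraries of Saline-Saline, at 12.7 ± 2.86 FPKM (SD, n = 4), by -0.75 on the log2 scale (SE 0.20, limma p = 0.00481, adjusted p = 0.0276, exact permutation p = 0.0286), and by -0.77 without Saline-Saline replicate 1. Heroin-SA, at 13.1 ± 4.76 FPKM (SD, n = 4), was thus at the level of the saline-injected rats. Both comparisons use the same Saline-SA libraries. Between Saline-SA and Saline-Saline, groups did not overlap for 28.3% of all genes tested.

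Saline-SA against Saline-Saline sets the controls of the experiments side by side, and 22.7% of all genes were called there, against 4 of 8 members. Besides Htr1b, Htr1a fell by 1.14 on the log2 scale (SE 0.46), Htr1d rose by 0.66 (SE 0.27) and Htr6 rose by 0.48 (SE 0.21), with adjusted p-values of 0.103 to 0.126. The exact permutation p was 0.0857, 0.0571 and 0.114 for these. These 3 calls were lost without Saline-Saline replicate 1, where the log2 fold changes were -1.04, 0.66 and 0.40, and in 4 or 5 of the other fits that left out a library. The Htr6 call was also lost with limma-voom on recovered reads, at 0.42. Mitochondrial genes took 12.9% ± 2.47 of reads in Saline-SA, 10.8% ± 0.743 in Heroin-SA and between 7.78% and 8.31% in the means of the injection groups (SD, n = 4). Medium spiny neuron markers were higher too, with 8 of 12 called up in Saline-SA and summed levels of 2093 to 3507 against 1320 to 2644 FPKM. Surgery, housing, procedure and experiment cannot be told apart in this comparison.

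Htr1a (chr2:36246628-36247896, plus strand, rn6), the Gi/o-coupled receptor of cortical, hippocampal and septal neurons, was the most variable member. It ran from 1.86 to 8.91 FPKM within Saline-Saline alone, on 34 to 166 reads. It was at 1.88 ± 0.670 FPKM in Saline-SA and 1.88 ± 0.487 FPKM in Heroin-SA (SD, n = 4), and its 95% interval for heroin SA was -0.62 to 0.71. In the 5 pairwise comparisons of the injection groups its intervals reached 1 log2 unit or more in at least 1 direction, so a change of about 2-fold lies within them. Htr1d (chr5:154800226-154801350, plus strand), which shares much of its pharmacology with Htr1b, had group means of 3.36 to 6.10 FPKM, and its intervals in treatment comparisons reached 0.45 to 0.83 above 0.

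Of the Gs-coupled members, Htr6 (chr5:157503040-157518631, minus strand, rn6), a receptor enriched in the striatum, had its smallest spread in Saline-Heroin, at 6.86, 6.79, 6.40 and 6.98 FPKM. Its log2 fold changes in the 6 treatment comparisons ran from -0.07 to 0.24 and none was called. Htr4 (chr18:57654290-57819698, plus strand) ran from 0.734 to 3.54 FPKM over all libraries, on 19 to 69 reads. Heroin-SA had 1.28, 1.46, 1.47 and 3.10 FPKM and Saline-SA 1.02, 0.734, 1.80 and 1.03 FPKM, a difference of 0.61 (95% interval -0.18 to 1.40) that was not called. In Heroin-SA, 3 libraries lay within the range of Saline-SA and 1 stood above it.

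Over the 8 measured receptors, the median log2 fold change was 0.16 after LPS, 0.16 after heroin and 0.10 after both, each over Saline-Saline, and 0.16 in Heroin-SA over Saline-SA. It was -0.10 in LPS-Heroin over LPS-Saline, -0.10 in LPS-Heroin over Saline-Heroin and -0.27 for the interaction, where 1 of 8 values was above 0. It was 0.12 in Saline-SA over Saline-Saline, 0.05 and 0.07 for the LPS and heroin main effects and -0.02 for the difference between SA and injected heroin. The median over all genes tested lay between -0.00496 and 0.0128 in these comparisons.

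Several receptors went with or against marker lists from library to library. Each of 8 members was correlated with 12 marker lists over the 24 libraries after removing group means, 96 pairs in all, and 6 pairs had an adjusted permutation p under 0.05. All points share library depth and dissection. Htr6 rose and fell with the medium spiny neuron list, with r = 0.88 and rho = 0.81 (permutation p = 2e-05 and 0.00025, adjusted p = 0.00192 and 0.012), r = 0.87 in the injection libraries, r = 0.92 in the SA libraries and r = 0.82 without the 2 farthest libraries. Htr1d (r = 0.67, rho = 0.58, permutation p = 0.00233 and 0.00893, adjusted p = 0.0373 and 0.107) and Htr1b (r = 0.63, rho = 0.62, permutation p = 0.00147 and 0.00382, adjusted p = 0.0286 and 0.0524) went with the same list, at r = 0.52 and 0.67 without the 2 farthest libraries. Within the experiments, r was 0.80 and 0.38 for Htr1d and 0.60 and 0.75 for Htr1b (injection, then SA).

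Htr4 ran against cortical and claustral markers, with r = -0.75 and rho = -0.72 (permutation p = 0.00086 and 0.00164, adjusted p = 0.0275 and 0.0315), r = -0.62 in the injection libraries, r = -0.96 in the SA libraries and r = -0.67 without the 2 farthest libraries. Htr2c ran against GABA interneuron markers, with r = -0.66 and rho = -0.67 (permutation p = 0.00149 and 0.00164, adjusted p = 0.0286 and 0.0315), r = -0.57 in the injection libraries, r = -0.83 in the SA libraries and r = -0.56 without the 2 farthest libraries. When the 16 injection libraries or the 8 SA libraries were adjusted on their own, 0 of 96 pairs had an adjusted p under 0.05 in either. Without the 2 farthest libraries of each list, 5 pairs had one. Htr6 and Htr1b with medium spiny neuron markers and Htr1f with septal markers remained (adjusted permutation p = 0.0192, 0.0192 and 0.0048). Htr4 with cortical markers, Htr2c with GABA interneuron markers and Htr1d with medium spiny neuron markers were lost (adjusted permutation p = 0.0795, 0.0942 and 0.248). Htr1a with medium spiny neuron markers (r = -0.65) and Htr2c with astrocyte markers (r = 0.55) were gained (adjusted permutation p = 0.0324 and 0.0365). Within the experiments, with no library left out, r was -0.53 and -0.71 for this pair of Htr1a (injection, then SA). For Htr2c with astrocyte markers it was 0.77 and -0.57, of opposite sign. Of 28 pairs of members, 0 had an adjusted permutation p under 0.05; the smallest was 0.175, for Htr1b and Htr2c (r = 0.57, rho = 0.54, unadjusted permutation p = 0.00625).

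**Figure D4:**
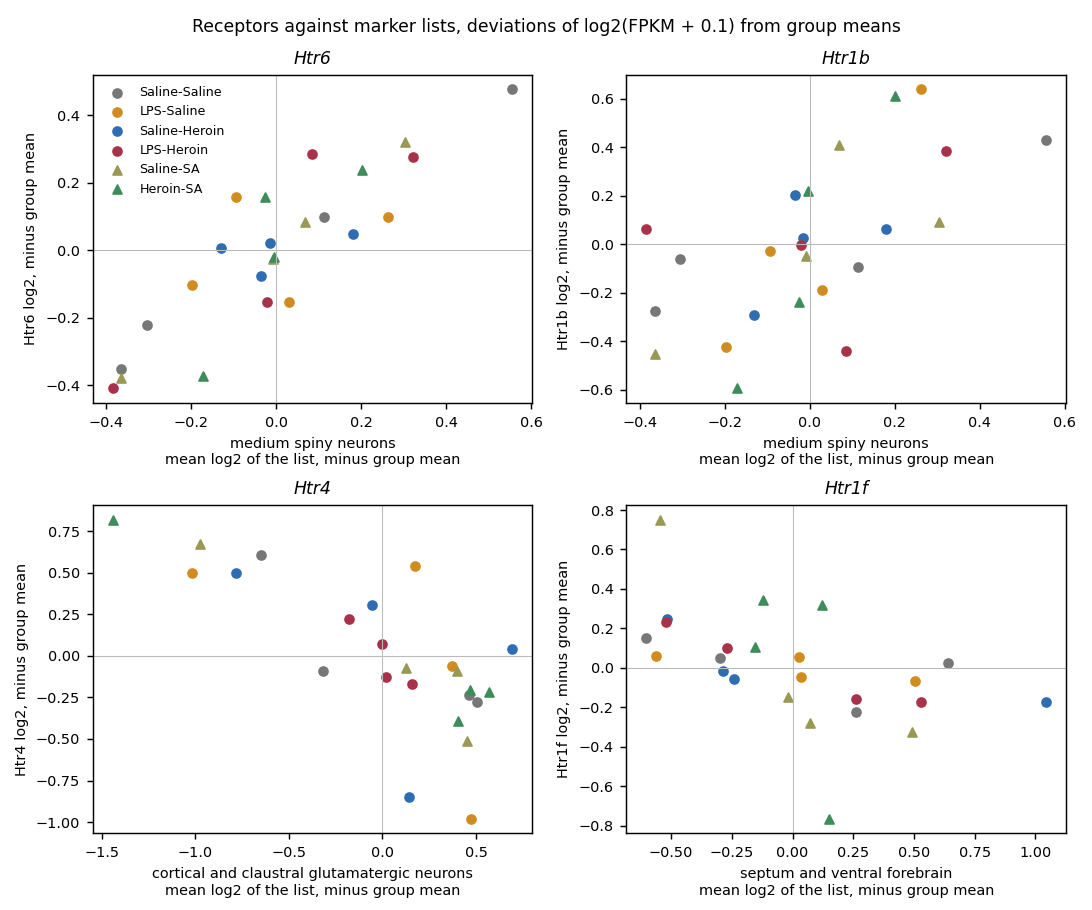
Deviation of a receptor's log2(FPKM + 0.1) from its group mean (vertical axis) against that of a marker list (horizontal axis) in 24 libraries. Circles are injection groups and triangles SA groups. Htr6 rises with the medium spiny neuron list (r = 0.88), as does Htr1b (r = 0.63), whereas Htr4 falls with cortical markers (r = -0.75) and Htr1f with septal markers (r = -0.53).

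The genes most like each receptor were taken as the 3 with the highest r to it over the 24 libraries after removing group means, of 12375 genes compared, as a description with no test. Htr6 was most like Rgs8, Pard3 and the adenosine receptor Adora2a, a marker of indirect-pathway medium spiny neurons (r = 0.90, 0.89 and 0.88). Htr1b was most like the glutamate receptor Grm5, Acvr1c and the scaffold Dlg2 (r = 0.93, 0.91 and 0.91). Htr1d was most like Scfd2, Abcd2 and the sodium channel subunit Scn4b (r = 0.77, 0.76 and 0.75). Htr1a went with Scd1, Kcng2 and Matn2 (r = 0.81, 0.81 and 0.76) and Htr1f with Rel, an NF-kB subunit, Chst2 and Wdr26 (r = 0.80, 0.75 and 0.75). Htr2a went with Oxct1, an enzyme of ketone use, Nmbr and Slc35c1 (r = 0.83, 0.80 and 0.80). Htr2c went with Fsd1l, Rgs17 and Taok1 (r = 0.81, 0.80 and 0.80), and Htr4 with the neuropeptide gene Nts, the GABA-synthesising enzyme Gad2 and Ino80c (r = 0.84, 0.80 and 0.79).

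The rest of the serotonin pathway was described from lists of 48 genes: the other receptors, the genes of serotonin synthesis, transport and breakdown, the effectors of Gi/o, Gq and Gs proteins, and receptor partners. Among the receptors that are not members, Htr3a, an ion channel, was at 7.66 FPKM and Htr5a at 4.60 FPKM, while Htr2b, Htr3b and Htr5b had means under 0.5 FPKM. The serotonin transporter Slc6a4 was at 0.066 FPKM or less in every library and Fev, a transcription factor of raphe neurons, was listed at 0. The monoamine oxidases Maoa and Maob were at 25.9 and 23.6 FPKM.

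Ddc, the decarboxylase that makes serotonin and dopamine from their precursors, was lower in both heroin-injected groups than in Saline-Saline. In LPS-Heroin over LPS-Saline, the comparison for heroin in rats with LPS, Ddc was not called. It stood at 2.07, 2.35, 2.03 and 2.49 FPKM in Saline-Saline, 1.27, 1.42, 0.941 and 1.44 FPKM in Saline-Heroin and 1.39, 1.10, 1.61 and 1.26 FPKM in LPS-Heroin. The decreases were -0.78 (SE 0.19, limma adjusted p = 0.75) and -0.70 (SE 0.18, limma adjusted p = 0.22), neither with overlap (shares of all genes tested without overlap, 3.39% and 6.86%). It was the 1 of 40 pathway genes tested that was called in Saline-Heroin, where 3.07% of all genes were called, and 0 of 40 were called in LPS-Saline over Saline-Saline, where 2.36% of all genes were. These shares of the pathway lie below those of all genes. In Heroin-SA, Ddc differed from Saline-SA by -0.41 (SE 0.30), which was not called.

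In LPS-Heroin over Saline-Saline, 5 of 40 pathway genes rose and 1 fell, where 5.42% of all genes were called, with a median log2 fold change of 0.08. The genes that rose were the potassium channel subunits Kcnj3, Kcnj6 and Kcnj9, which Gi/o proteins open, the inositol trisphosphate receptor Itpr1 on the Gq side, and Rgs4, which shortens G protein signals. Kcnj9 rose by 0.50 (SE 0.12) from 20.3 ± 3.51 to 28.4 ± 1.85 FPKM (SD, n = 4) and Rgs4 by 0.58 (SE 0.13) from 59.9 ± 9.71 to 89.5 ± 11.5 FPKM (SD, n = 4), both without overlap, as for 6.86% of all genes tested. Kcnj3 rose by 0.83 (SE 0.30), Kcnj6 by 0.85 (SE 0.36) and Itpr1 by 0.44 (SE 0.19), with groups that overlapped. Adjusted p-values of these 5 genes in limma ran from 0.186 to 0.436. In the same comparison, 7 of 12 cortical and claustral markers rose, with a median log2 fold change of 0.81. The part of cortical RNA in the values of these pathway genes was not tested.

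In Heroin-SA over Saline-SA, 4 of 40 pathway genes rose and 0 fell, a share of 10.0% against 5.44% of all genes, with a median of 0.10. Itpr1 rose by 0.61 (SE 0.19) from 27.8 ± 5.99 to 42.2 ± 7.95 FPKM (SD, n = 4) and Prkca, a protein kinase C, by 0.52 (SE 0.19). Mpdz, a scaffold that binds the tail of Htr2c, rose by 0.47 (SE 0.14), and Rgs4 by 0.40 (SE 0.15). Rgs4 and Itpr1 were thus called in comparisons that share no rat. For the remaining comparisons, 0 of 39 pathway genes were called in LPS-Heroin over LPS-Saline, 0 of 39 in LPS-Heroin over Saline-Heroin and 0 of 39 for the LPS main effect. For the heroin main effect, Ddc fell and Kcnj3 rose, by 0.54 (SE 0.25), 2 of 39 pathway genes or 5.13% against 2.45% of all genes. For the interaction, the caveolin Cav1 was called (0.41, SE 0.11), 1 of 39 or 2.56%, close to the 2.31% of all genes, and for the difference between SA and injected heroin 0 of 40 were called.

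Saline-SA differed from Saline-Saline in 13 of 41 pathway genes, 2 up and 11 down, a share of 31.7% against 22.7% of all genes. The Gq side made up 6 of the 11 genes that fell, among them the G protein Gnaq (-1.46, SE 0.09) and Prkca (-1.65, SE 0.12). Plcb1, Plcb4, Itpr1 and Prkcb fell by 0.40 to 0.59. The others that fell were Gnai1, Kcnj6, Arrb1, Adar and Cnr1, and those that rose were Htr3a, by 0.70 (SE 0.20), and Ppp1r1b, the dopamine- and cyclic AMP-regulated phosphoprotein of medium spiny neurons, by 0.69 (SE 0.25). Gnaq stood at 37.5, 34.6, 35.8 and 34.6 FPKM in Saline-Saline and at 13.2, 14.9, 12.8 and 10.9 FPKM in Saline-SA. The groups lay far apart for this G protein, whereas Htr2a, which couples to it, was at a like level in both.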

How the data were processed

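Poly(A) RNA of the nucleus accumbens was sequenced in 24 libraries after strand-marking library preparation from 300 ng of RNA. The authors trimmed reads with fastp, aligned them to the rat genome with HISAT2 and counted them per gene with featureCounts, and the submitters' notes name rn6. The authors deposited FPKM values for 32545 genes. Whether counting used the strand is not given in the sources used here. The file held 2 columns of gene descriptions and transcription factor families that were not used, and 0 sample columns without a label. Values went back to whole reads in 100.0% of cases (tolerance 0.1 read), with 12312878 to 18850240 reads on genes per library. No libraries were near-duplicates (highest correlation 0.9841).

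Groups came from the sample labels. Differences were tested with limma 3.58.1 (R 4.3.3) with a mean-variance trend on log2(FPKM + 0.1), over genes with a mean of at least 0.5 FPKM in the libraries compared, with Benjamini-Hochberg adjustment over all genes tested. A gene was called at an unadjusted p of at most 0.05 and a fold change of at least 1.3. Tests of a single receptor also used a two-sided exact permutation of libraries. Correlations used 100000 permutations within groups. Nothing in the labels gives litters or cages, so p-values measure the spread between these rats. The p-values of limma for groups of 4 rest on spread shared across genes. The test was tried on simulated data. Receptors, pathway lists and marker lists were chosen with earlier results of these data known. The text names all 9 receptors, pathway genes that passed the thresholds, and the 3 genes most alike each receptor with a mean of at least 0.5 FPKM (candidates had a mean of at least 1 FPKM). Other genes named were chosen for their roles. Promoter bases came from RefSeq and were matched by symbol. Alternatives covered the pseudocount, the filter, scaling, limma-voom on recovered reads, all 6 groups in one fit, robust moderation, the thresholds, the replicate number as a block, and each library left out.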

Additional observations from a re-analysis of the deposited data

Results flagged for a closer look

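In 5 of 48 sets of 4 libraries (8 receptors in 6 groups), 1 library lay far from the rest of its group by Dixon's criterion, which chance meets in about 1 in 20 sets. Htr1a stood at 2.61 FPKM in Heroin-SA replicate 2, above the rest of the group. Htr1f stood at 3.505 FPKM in Saline-SA replicate 1, and Htr2c at 50.7 FPKM in LPS-Heroin replicate 3, below its group. Htr4 stood high in Saline-Saline replicate 3, at 2.84 FPKM, and in Heroin-SA replicate 4, at 3.10 FPKM.

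Htr1f was called for the interaction, the difference in the heroin effect between rats with and without LPS, at -0.90 on the log2 scale. Htr1b was called for the difference in the heroin effect between self-administration and injection, at 0.87 on the log2 scale. Both came from a test of the difference itself in limma, and neither held after adjustment over all genes (adjusted p = 0.992 and 0.721).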

How the results depend on the processing

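Of 2016 values of single receptors under the alternatives, 1960 kept their direction and their side of the thresholds, 39 no longer passed, 17 newly passed and 0 turned while past the thresholds; 94 values past the thresholds in neither setting changed sign. With a pseudocount of 1, 1 receptor was called in LPS-Saline and 1 in Saline-Heroin over Saline-Saline, since Htr1f was lost from both. With an adjusted p under 0.05 in place of both thresholds, limma called 0 in each of the 3 treated injection groups over Saline-Saline, 0 in Heroin-SA over Saline-SA, 0 for the interaction, 0 for the difference between SA and injected heroin, and 1 (Htr1b) in Saline-SA over Saline-Saline. Without a fold change threshold, 1 was called for each main effect, where 1008 (LPS) and 1226 (heroin) of 15113 genes had an unadjusted limma p under 0.05. With equal medians, 2 were called for the difference between SA and injected heroin. Pairs of receptors and marker lists fell from 6 to 0 in the 16 injection libraries and to 0 in the 8 SA libraries, where fewer libraries were used. Leaving out each library in turn gave counts of 1 to 3 in LPS-Saline over Saline-Saline, 2 to 2 in Saline-Heroin and 1 to 1 in LPS-Heroin over Saline-Saline, 0 to 1 in LPS-Heroin over either group with 1 agent, 1 to 3 in Heroin-SA, 1 to 4 in Saline-SA over Saline-Saline, 0 to 0 for LPS, 0 to 1 for heroin, 1 to 2 for the interaction and 1 to 2 for SA less injection. The causes of these shifts were not tested beyond the number of libraries. Same-numbered libraries had correlations of -0.15 to 0.15 between their deviations, so the numbers were not taken to pair rats; 0 to 3 libraries of a comparison went best with their own number. With the replicate block, 5 receptors were called in Saline-SA over Saline-Saline (Htr4 added) and the counts of the other comparisons were as reported (2, 2, 1, 0, 0, 2, 0, 0, 1 and 1, in the order of pairwise comparisons, main effects, interaction and difference). Htr1a, Htr1d, Htr1f and Htr4 rest on fewer than 100 reads in most libraries, which limits small changes.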
